A study of Mus musculus with 18 samples.

Results

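The femoral fracture callus of old mice was compared between day 5 and day 1 after the break. The members were chosen by their titles: the 3 arrays of old mice on day 5 and the 3 arrays of old mice on day 1, or 6 of the 18 arrays of the study. The mice were female retired breeders of 8 months, and no mutation, transgene or drug is given in the labels for any group. The 3 arrays of old mice on day 3, and the 3 arrays each of young mice of 6 weeks on day 1 and on day 5, place the change in time and show whether it differed in young mice. All 18 arrays, the 3 of young mice on day 3 among them, share 1 estimate of the spread and so bear on which genes were called. The labels disagree on the strain, where the sample fields have BALB/c but c57BI6 stands in the series' design. Whether each array holds its own animal is not stated, and p-values here therefore describe only how much these arrays vary, in part perhaps through technique. Unfractured bone was not analysed here, so day 1 is the reference and not a state before injury.

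A broken long bone that can move heals through a soft callus. Blood fills the gap, neutrophils and then macrophages enter, and cells of the periosteum and the surrounding tissue multiply and lay down a collagen-rich matrix. Some of them then become chondrocytes, whose cartilage bridges the gap, enlarges, mineralises and is replaced by bone. Muscle torn by the fracture lies against the callus and repairs itself from satellite cells over the same days.

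Values are array signals on a log2 scale, log2(signal + 16) after quantile normalization, where a difference of 1 is close to a doubling in bright genes and understates the change of dim ones. The median of each array was 6.03 and the highest value 14.47. A gene was called where limma's moderated test over all tested probe sets gave a Benjamini-Hochberg adjusted p under 0.05, and errors of differences are standard errors (SE) of that fit. The 3 arrays of day 1 correlated with each other at 0.894 to 0.927, the 3 of day 5 at 0.965 to 0.976, and arrays of different days at 0.77 to 0.819. The 3' to 5' signal ratio of Actb, which rises as RNA shortens, moved with the day: it was 2.67, 2.52 and 2.27 on day 1, and 1.39, 1.72 and 1.67 on day 5. Other controls moved too. The 3' to 5' ratio of Gapdh was 1.02, 1.04 and 0.961 on day 1 and 0.858, 0.888 and 0.831 on day 5. The deposited signal of the cre spike-in, a control transcript added in a fixed amount on such arrays, differed as well. It was 54464, 37933 and 42350 on day 1 and 9887, 18420 and 14462 on day 5. The signal of 18S rRNA was 322, 184 and 326 on day 1 and 38.7, 126 and 162 on day 5. The days did not overlap in any of these 4 controls, and the part of the spike-in and rRNA signals in the results was not tested. On day 3 the Actb ratio was 1.6, 1.37 and 1.56 and the cre signal 22832, 12958 and 20659, nearer to day 5 than to day 1. Most of the shift in these controls lay between day 1 and day 3, and its part in the timing of calls was not tested. With the Actb ratio as a covariate in the fit, 6284 probe sets were called in place of 10507. Because the ratio itself differs between the days, RNA length and time are hard to separate in that fit. A call lost there does not show which of them applies. Lists whose count then moved by over 1.5 times are given with both counts.

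Between day 1 and day 5 a large part of the measured genes differed. Genes of cartilage, of the collagen matrix and of regrowing muscle were higher on day 5, and genes of neutrophil-attracting chemokines, red blood cells and the early stress response were lower. Genes of contracting muscle were lower on every array of day 5, but only 3 of 26 were called. Of 27746 probe sets tested 10507 were called, which is 37.9%, with 5880 higher and 4627 lower on day 5. Read as genes, 2830 of 12921 were called higher (21.9%) and 2235 lower (17.3%), and the median difference of all genes was 0.02. The counts of each list below are to be read beside these shares. With a 2-fold difference required of the estimate as well, 1685 genes were higher and 1217 lower. In 6688 genes, or 51.8%, the arrays of day 1 and day 5 did not overlap. The balance of directions depended on the scaling: with the values as deposited 4908 probe sets were higher and 6893 lower, around a median of all probe sets of -0.13, and with arrays centred on their medians 11624 were higher and 2659 lower, around a median of 0.48, where the median under quantile normalization was 0.03.

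The largest rise was that of C1qtnf3, which encodes a secreted protein of growing cartilage. Its levels were 5.42, 4.83 and 4.43 on day 1 and 12.26, 12.30 and 12.25 on day 5, a difference of 7.38 ± 0.53 (SE; adjusted p = 4.19e-08). All 3 arrays of day 1 lay below the array median and all 3 of day 5 among the bright probe sets, so the groups were far apart and the size of the difference rests partly on the pseudocount. The next in size were Col2a1, Cthrc1, Myh3, Ogn, Mest, Aspn, Col9a1, Col11a1, Col9a3, Cnmd, Ecrg4, Tspan6, Plagl1 and Myh8, at 6.76 to 4.56. Of these 15 genes, 5 were cartilage matrix genes, 3 were genes of the collagen-rich matrix and 2 encode myosins of newly formed muscle fibres. The 15 largest falls, from -5.42 to -3.55, were those of Erdr1, Cxcl3, Ankrd2, Cxcl2, Ntmt1, Psg28, Xirp1, Myl3, Slc4a1, Gm3715, Bzw2, Thbd, Alpk2, Pdk4 and Myl2. They hold a pair of neutrophil chemokines, the red cell anion exchanger Slc4a1, the thrombomodulin gene Thbd, and Ankrd2, Xirp1, Myl3, Alpk2, Pdk4 and Myl2, which are expressed in striated muscle. Ntmt1, a protein methyltransferase gene, is uncertain, because of its 2 tested probe sets 1 was called lower and 1 higher.

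**Figure D1:**
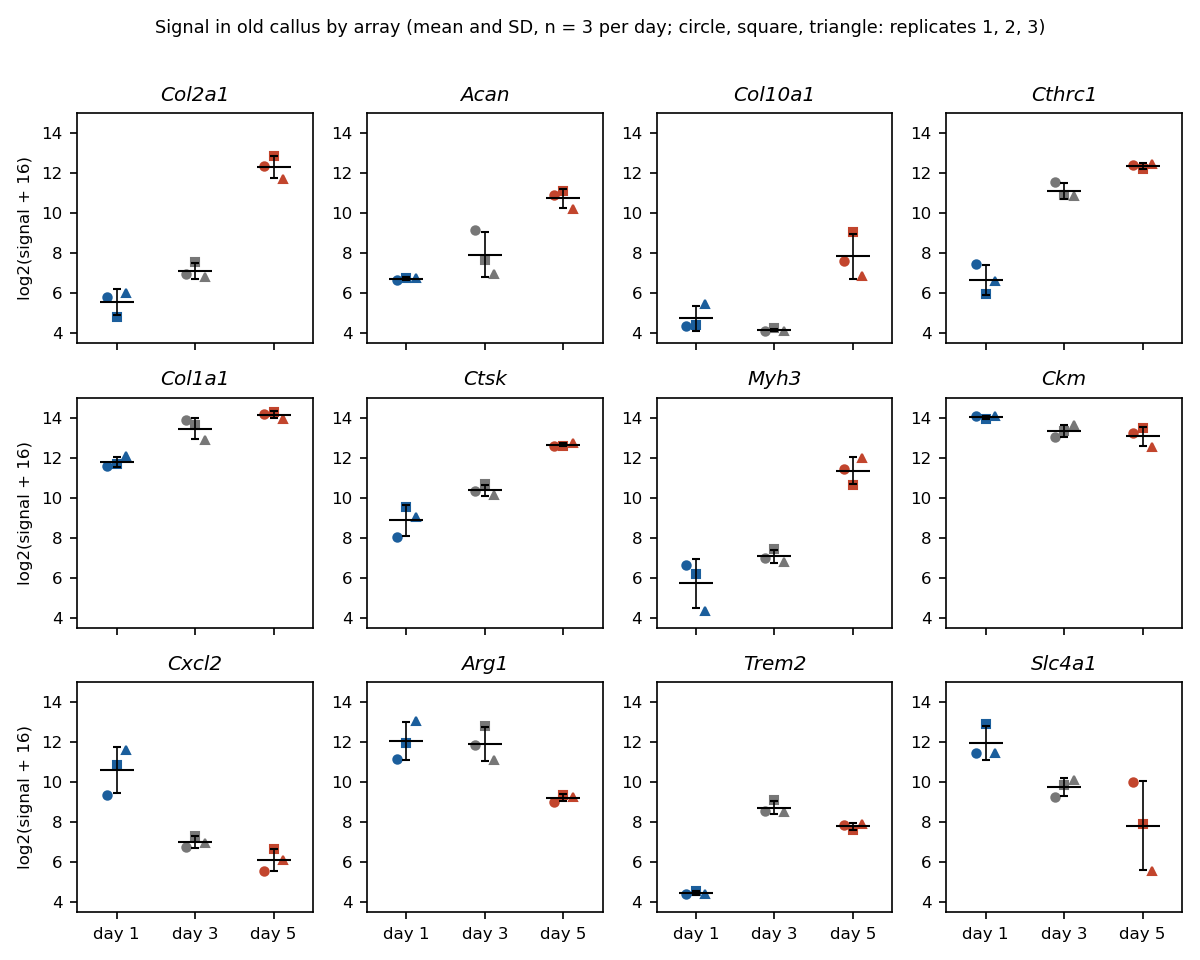
Levels of 12 genes on the 9 arrays of old callus, as log2(signal + 16) after quantile normalization, by day after fracture; symbols are replicates and bars are mean and SD (n = 3 per day). On day 3 the means of Col2a1, Acan, Col10a1 and Myh3 lay nearer to day 1 than to day 5, Cthrc1 and Trem2 were already high on day 3, and Cxcl2 was low from day 3.

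Cartilage matrix genes formed the list with the highest median. Of 18 measured, 15 rose, 1 fell and 2 were not called, and the median difference was 3.08 beside 0.02 over all genes. In bulk tissue, more cells of a type and more RNA per cell cannot be told apart. Col2a1 encodes the main collagen of cartilage. Its levels were 5.81, 4.81 and 6.03 on day 1 and 12.35, 12.85 and 11.73 on day 5, a rise of 6.76 ± 0.62 (adjusted p = 5.87e-07). Every array of day 5 was more than 5 units above every array of day 1. Acan, the large aggregating proteoglycan of cartilage, stood at 6.68, 6.78 and 6.77 on day 1 and at 10.91, 11.12 and 10.21 on day 5, and rose by 4.0 ± 0.46 (adjusted p = 5.98e-06). The fibril partners Col9a1, Col9a3 and Col11a1 rose by 5.03, 4.71 and 4.75, the link protein gene Hapln1 by 4.36 and Matn3, a matrilin, by 4.37. Cnmd, which encodes the vessel-repelling chondromodulin, rose by 4.71. Chad and Epyc were not called, at 1.12 ± 0.52 and 0.19 ± 0.36. Prg4, the lubricin of joint surfaces and tendon, went the other way, from 11.99, 12.86 and 13.31 to 10.37, 10.29 and 10.77, and fell by 2.24 ± 0.57 (adjusted p = 0.00568). Matn1 and Cytl1 had no tested probe set assigned to them alone.

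The rise of cartilage matrix lay late in the interval. Between day 1 and day 3 only 4 of the 18 genes were called, with a median of 0.70, where 30.3% of all genes were called. Between day 3 and day 5 there were 11 called, with a median of 2.27, where 0.836% of all genes were called. Both steps share the arrays of day 3. For Col2a1 the steps were 1.57 (adjusted p = 0.0641) and 5.19 (adjusted p = 0.000433), and for Col9a1 0.46 (adjusted p = 0.434) and 4.57 (adjusted p = 4.16e-05). Col11a1 differed from these in its values, with a first step of 2.67 (adjusted p = 5.04e-05) and a second of 2.08 (adjusted p = 0.00738). The number of probe sets called between day 3 and day 5 was 164 and fell to between 49 and 80 without old day 3 replicate 2 or 3 or any 1 array of old day 5, so the second step rests on few arrays.

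Most chondrocyte regulators rose too. Of 11 measured, 9 rose, 1 fell and 1 was not called, with a median of 1.51; with the Actb ratio as a covariate 5 rose. Sox9, the transcription factor that commits cells to cartilage, stood at 5.93, 5.71 and 6.14 on day 1 and at 7.81, 8.16 and 7.58 on day 5, a rise of 1.93 ± 0.35 (adjusted p = 0.000428). Its partner Sox5 rose by 1.45 ± 0.41, the growth-restraining receptor gene Fgfr3 by 1.51 ± 0.40 and the parathyroid hormone receptor gene Pth1r by 2.24 ± 0.37. Sox6, which is also expressed in muscle, fell by 1.45 ± 0.50 (adjusted p = 0.0291), a call that was lost without day 1 replicate 2 or 3, without day 5 replicate 1 or 3 and under median centring; 1 of its 4 tested probe sets was called. Ihh, Nkx3-2, Barx1, Pax1 and Foxa2 had no tested probe set of their own.

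Genes of hypertrophic cartilage, in which chondrocytes enlarge and prepare for mineralisation, rose in 5 of 8 cases and fell in 1. Their median was 1.89, and 3 rose with the Actb ratio as a covariate. Of the 5, Alpl and Ibsp also stand in the bone matrix list, and Pth1r in the lists of chondrocyte and osteoblast regulators. Col10a1, the collagen specific to hypertrophic cartilage, stood at 4.38, 4.42 and 5.45 on day 1 and at 7.63, 9.09 and 6.86 on day 5, and rose by 3.11 ± 0.74 (adjusted p = 0.00346). The day 5 arrays spread over more than 2 units, with replicate 2 highest, yet all were above day 1. Panx3, a channel of maturing chondrocytes and osteoblasts, rose by 4.39 ± 0.40 (adjusted p = 5.48e-07). Mmp13, the collagenase that clears cartilage, was bright and overlapped between days, with 9.79, 11.94 and 12.03 on day 1 and 12.01, 11.92 and 11.98 on day 5 (adjusted p = 0.264). Vegfa, the main signal for vessel growth, fell by 1.10 ± 0.16 (adjusted p = 6.22e-05). Spp1, Runx2 and Phospho1 had no tested probe set of their own.

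Bone matrix genes were already bright on day 1 and rose further. Of 17 measured, 14 rose and 0 fell, with a median of 2.34. Of the 14, Serpinh1, Bmp1, P3h1 and Lox also stand in the collagen processing list, and Alpl and Ibsp in the hypertrophic cartilage list. Col1a1, the main collagen of bone, stood at 11.57, 11.70 and 12.09 on day 1 and at 14.17, 14.31 and 13.96 on day 5, a rise of 2.36 ± 0.35 (adjusted p = 8.22e-05). Day 5 lay close to the top of the scale, where differences are compressed. Ibsp, the bone sialoprotein gene, was 10.18, 11.71 and 12.02 on day 1 and 13.13, 13.38 and 13.07 on day 5, and rose by 1.88 ± 0.38 (adjusted p = 0.00109). Phex, which restrains inhibitors of mineralisation, rose by 2.88 ± 0.38, the sphingomyelinase gene Smpd3 by 2.76 ± 0.35 and Ifitm5, an osteoblast membrane protein gene, by 2.73 ± 0.42. Dmp1 and Mepe, genes of osteocytes, were not called at 1.11 ± 0.53 and -0.80 ± 0.34. Between day 1 and day 3, 13 of the 17 were called higher with a median of 1.55, where 30.3% of all genes were called in either direction. Most of the shift in the Actb ratio and the cre spike-in lay in that step too. Between day 3 and day 5 there were 0, with a median of 0.80, where 0.836% of all genes were called, so the 0 does not show that the rise had ended. Of 12 osteoblast regulators, 6 rose, among them Sp7 by 1.51 ± 0.37 and Dlx5 by 1.54 ± 0.34, and Atf4 fell by 1.27 ± 0.13; with the Actb ratio as a covariate 3 rose.

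Of 15 osteoclast genes 6 rose and 1 fell, with a median of 0.38; 11 rose with arrays centred on their medians and 10 with all probe sets of a gene averaged. Osteoclasts are the cells that resorb bone and mineralised cartilage. The genes that rose encode their digestive enzymes and fusion proteins. Ctsk, the collagen-degrading cathepsin, stood at 8.02, 9.56 and 9.05 on day 1 and at 12.61, 12.60 and 12.75 on day 5, a rise of 3.78 ± 0.32 (adjusted p = 3.26e-07). Acp5, the tartrate-resistant phosphatase, was 7.19, 8.99 and 8.32 on day 1 and 11.70, 11.37 and 11.32 on day 5, and rose by 3.30 ± 0.36. The days did not overlap for either gene and day 5 was uniform. Ocstamp and Dcstamp, needed for fusion, rose by 2.84 ± 0.31 and 1.85 ± 0.37, and the proton pump subunit gene Atp6v0d2 by 2.64 ± 0.39. Oscar, Tcirg1, Clcn7, Nfatc1 and Tnfrsf11a were not called, at 0.16 to 0.52. Car2, a carbonic anhydrase that red cells also hold, fell by 2.43 ± 0.65 (adjusted p = 0.00735). Among the signals that control osteoclasts, Tnfsf11, which encodes RANKL, rose by 1.05 ± 0.34 (adjusted p = 0.0216), and its decoy receptor gene Tnfrsf11b was not called at 0.72 ± 0.39.

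Nearly all measured genes of the collagen-rich repair matrix rose. Of 27 fibrillar and fibril-associated genes 25 rose and 0 fell, with a median of 2.79. For 26 of them day 5 did not overlap day 1, where this held for 51.8% of all genes. Of 22 collagen processing genes 21 rose and 0 fell, with a median of 2.21. Cthrc1, a secreted protein of wound matrix, stood at 7.46, 5.96 and 6.64 on day 1, 11.57, 10.90 and 10.86 on day 3 and 12.42, 12.20 and 12.46 on day 5, and rose by 5.68 ± 0.32 (adjusted p = 5.75e-09). Most of that difference was present on day 3, and the step from day 3 to day 5 was not called (1.25, adjusted p = 0.108). The small leucine-rich proteoglycan genes Ogn and Aspn, whose products bind collagen fibrils, rose by 5.19 ± 0.33 and 5.06 ± 0.32. Postn, a periosteal matrix protein gene, was 10.48, 11.28 and 11.24 on day 1 and 13.99, 13.81 and 14.20 on day 5, and rose by 3.00 ± 0.40. Col3a1, the collagen of granulation tissue, was at 11.94, 12.17 and 12.04 on day 1 and at the highest value of the scale on all 3 arrays of day 5, so its rise of 2.42 ± 0.31 is limited by the top of the scale. Eln and Thbs4 were not called, at 0.37 ± 0.34 and -0.82 ± 0.67.

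The enzymes and chaperones that finish collagen rose with it. Serpinh1, the collagen chaperone, stood at 9.57, 8.90 and 9.44 on day 1 and at 12.86, 12.65 and 12.50 on day 5, a rise of 3.36 ± 0.28 (adjusted p = 2.18e-07). The lysyl hydroxylase gene Plod2 rose by 3.22 ± 0.27 and the cross-linking oxidase gene Lox by 2.34 ± 0.31. Prolyl hydroxylases stabilise the triple helix, and P3h3, P4ha3, P4ha2 and P4ha1 rose by 3.28, 2.63, 2.32 and 1.70. Pcolce and Bmp1, which encode the enhancer and the protease that trim procollagen, rose by 3.08 and 2.90. P3h2 was not called, at 0.63 ± 0.38. In each list most calls fell between day 1 and day 3. Most of the shift in the Actb ratio and the cre spike-in lay in that same step. There 21 of 27 and 19 of 22 were called higher, where 30.3% of all genes were called in either direction. Between day 3 and day 5 there were 3 and 2, where 0.836% of all genes were called. The medians of that step were 1.17 and 0.76, so the few calls do not show that the rise had ended.

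Matrix proteases and their inhibitors did not move as a block. Of 20 measured 9 rose and 3 fell. Mmp14, a membrane collagenase gene, rose by 2.81 ± 0.33, Mmp23 by 3.33 ± 0.30, Adamts12 by 3.26 ± 0.24 and the inhibitor gene Timp2 by 2.49 ± 0.19. Adamts1 fell by 1.65 ± 0.28. Mmp3 fell by 0.73 ± 0.28 and Adamts5 by 0.50 ± 0.19, and Adamts5 turned to 0.20 with arrays centred on their medians. Of 15 skeletal progenitor genes 9 rose, led by Prrx2 at 2.64 ± 0.33, Cspg4 at 2.40 ± 0.47 and Acta2, the actin of contractile stromal cells, at 2.27 ± 0.25. Grem1, a BMP antagonist gene, fell by 1.04 ± 0.24, and Lepr was not called at 1.20 ± 0.47. Of 12 tendon and periosteum genes 6 rose and 3 fell. Tnmd, the tenomodulin gene, rose by 3.30 ± 0.57 and Kera, a keratan sulfate proteoglycan gene, by 2.42 ± 0.65. Angptl7 fell by 2.91 ± 0.41, and the tendon factor gene Scx was not called at 0.63 ± 0.34. The other calls stand in further lists too: Postn and Tnc rose in the fibrillar list, Fmod in cartilage matrix and Ctsk in the osteoclast list. Egr1 and Egr2, which fell, are also immediate early genes.

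**Figure D2:**
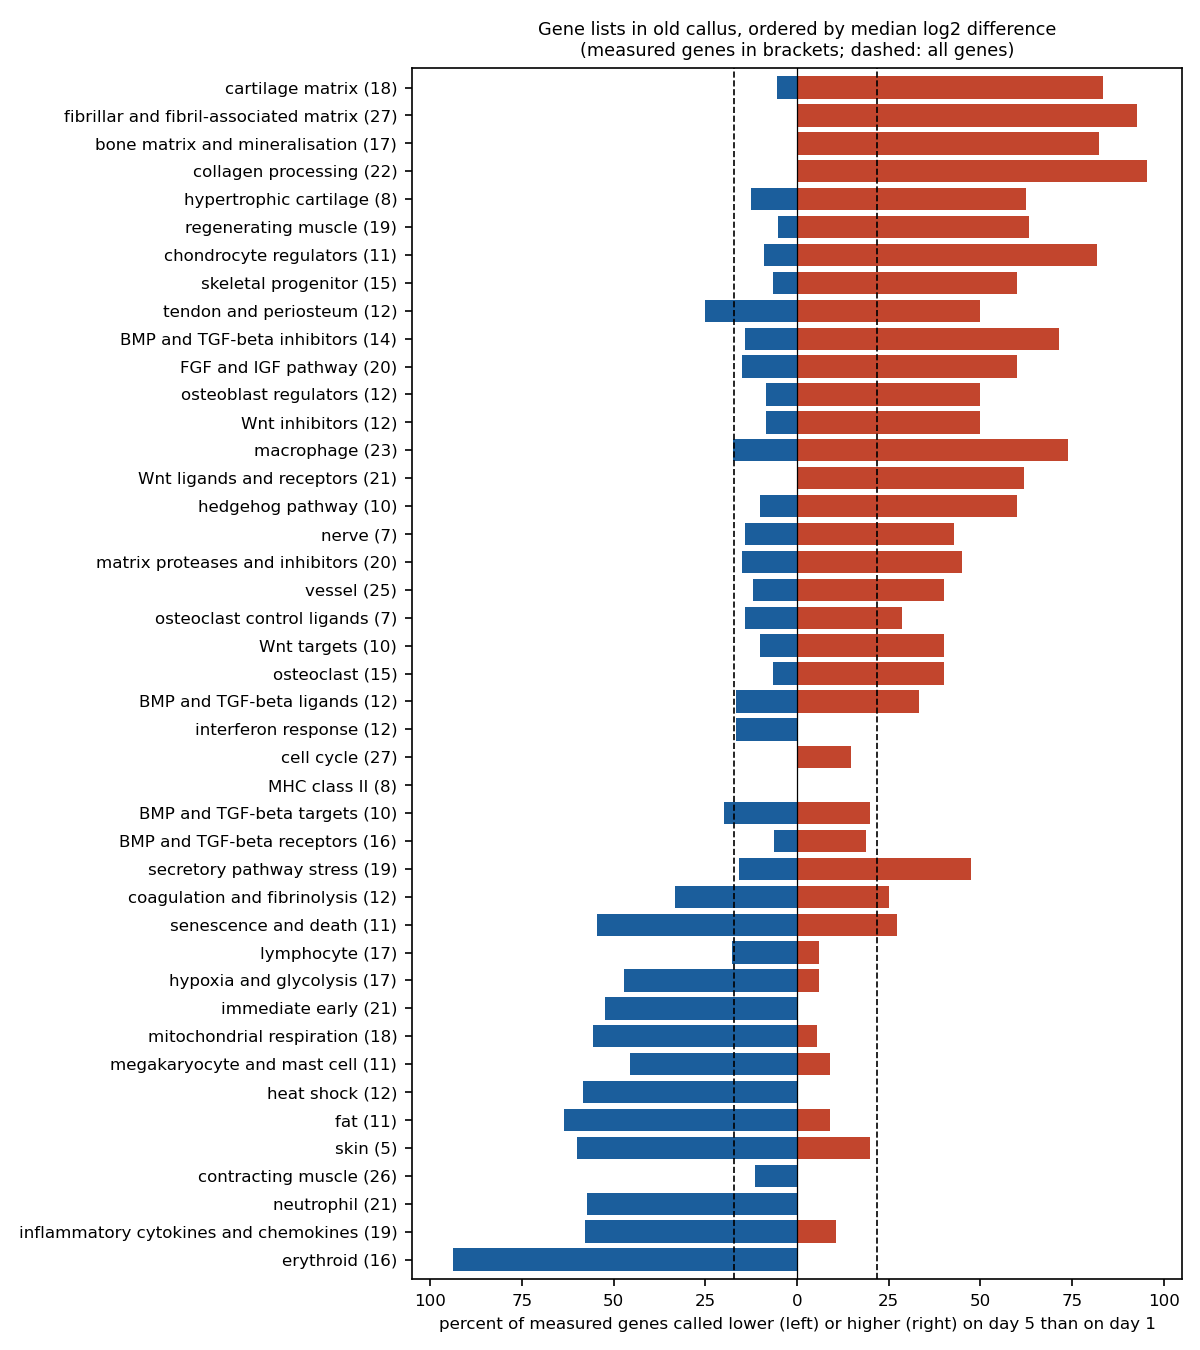
Percent of the measured genes of each of 43 lists that were called higher (right) or lower (left) on day 5 than on day 1 in old callus, ordered by the list's median difference, with the number measured in brackets; dashed lines mark 21.9% higher and 17.3% lower over all genes. Cartilage, collagen and bone matrix lists stand at the top and the erythroid list at the bottom; contracting muscle had 3 of 26 lower in the fit of 18 arrays shown here and 25 of 26 in the fit of the 6 arrays alone.

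The BMP and TGF-beta pathway drives both cartilage and bone formation. Of 12 ligand genes 4 rose, or 2 with the Actb ratio as a covariate, and 2 fell, with a median of 0.32 that turned to -0.08 with the values as deposited. Tgfb3 stood at 7.81, 6.55 and 7.43 on day 1 and at 9.99, 9.77 and 9.80 on day 5, a rise of 2.59 ± 0.36 (adjusted p = 4.14e-05). Tgfb2, Bmp5 and Gdf10 rose by 1.30, 1.30 and 1.31. Bmp4 fell by 0.81 ± 0.22 and the activin subunit gene Inhbb by 1.84 ± 0.27, and Bmp2 was not called at -0.07 ± 0.53, above 0 under median centring. Among 16 receptors and SMAD genes 3 rose and 1 fell: Acvr1, a type I BMP receptor gene, rose by 2.34 ± 0.24, Tgfbr2 by 1.54 ± 0.21 and Tgfbr1 by 0.46 ± 0.14, and Acvr1b fell by 1.23 ± 0.21. Acvr1 and Tgfbr1 are uncertain, since of the 3 tested probe sets of each 2 were called higher and 1 lower. With arrays centred on their medians 11 of the 16 rose. Of 14 genes of the inhibitor list 10 rose and 2 fell, and 4 rose with the Actb ratio as a covariate. Among the 10 were the binding protein genes Ltbp1, Ltbp2 and Ltbp3, and whether they act as inhibitors here was not tested. Bambi, a decoy receptor gene, rose by 2.58 ± 0.37, Fstl1 by 2.45 ± 0.24, the latent TGF-beta binding protein gene Ltbp1 by 1.84 ± 0.26 and Chrd, which encodes chordin, by 1.45 ± 0.35, while Smad7 fell by 0.76 ± 0.21. Of 10 target genes 2 rose and 2 fell: Id3 and Smad6 rose by 1.56 and 1.27, and Id4 fell by 1.34. Over all genes 21.9% were called higher and 17.3% lower. In the main fit the receptor and target counts lay near or under these shares.

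In the Wnt pathway, which controls the fate of skeletal progenitors, 13 of 21 ligands and receptors rose and 0 fell, with a median of 0.94; 5 rose with the Actb ratio as a covariate. The receptor gene Fzd2 stood at 6.19, 6.06 and 5.23 on day 1 and at 8.61, 8.49 and 8.42 on day 5, a rise of 2.68 ± 0.27 (adjusted p = 1.56e-06). Wnt5a, a ligand of the beta-catenin-independent branch, rose by 2.25 ± 0.35, its co-receptor gene Ror2 by 1.72 ± 0.31, and the Wnt-enhancing R-spondin genes Rspo3 and Rspo2 by 1.92 and 1.67. The largest rises in the pathway were among the secreted inhibitors, of which 6 of 12 rose and 1 fell. Sfrp2 was 5.55, 5.76 and 5.99 on day 1, 10.09, 10.57 and 9.62 on day 3 and 10.08, 9.93 and 10.52 on day 5, and rose by 4.41 ± 0.39 (adjusted p = 5.07e-07). Day 3 and day 5 overlapped for this gene. Dkk3, Sfrp1 and Frzb rose by 3.52, 3.49 and 3.44, and Sfrp5 fell by 1.60 ± 0.36. Of 10 targets of the pathway 4 rose and 1 fell, and 2 rose with the Actb ratio as a covariate or the values as deposited: Ccn4 rose by 3.27 ± 0.42 and Nkd2 by 2.07 ± 0.24, Lef1 fell by 1.92 ± 0.28, and Axin2, a common readout of the pathway, was not called at -0.34 ± 0.33.

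**Figure D3:**
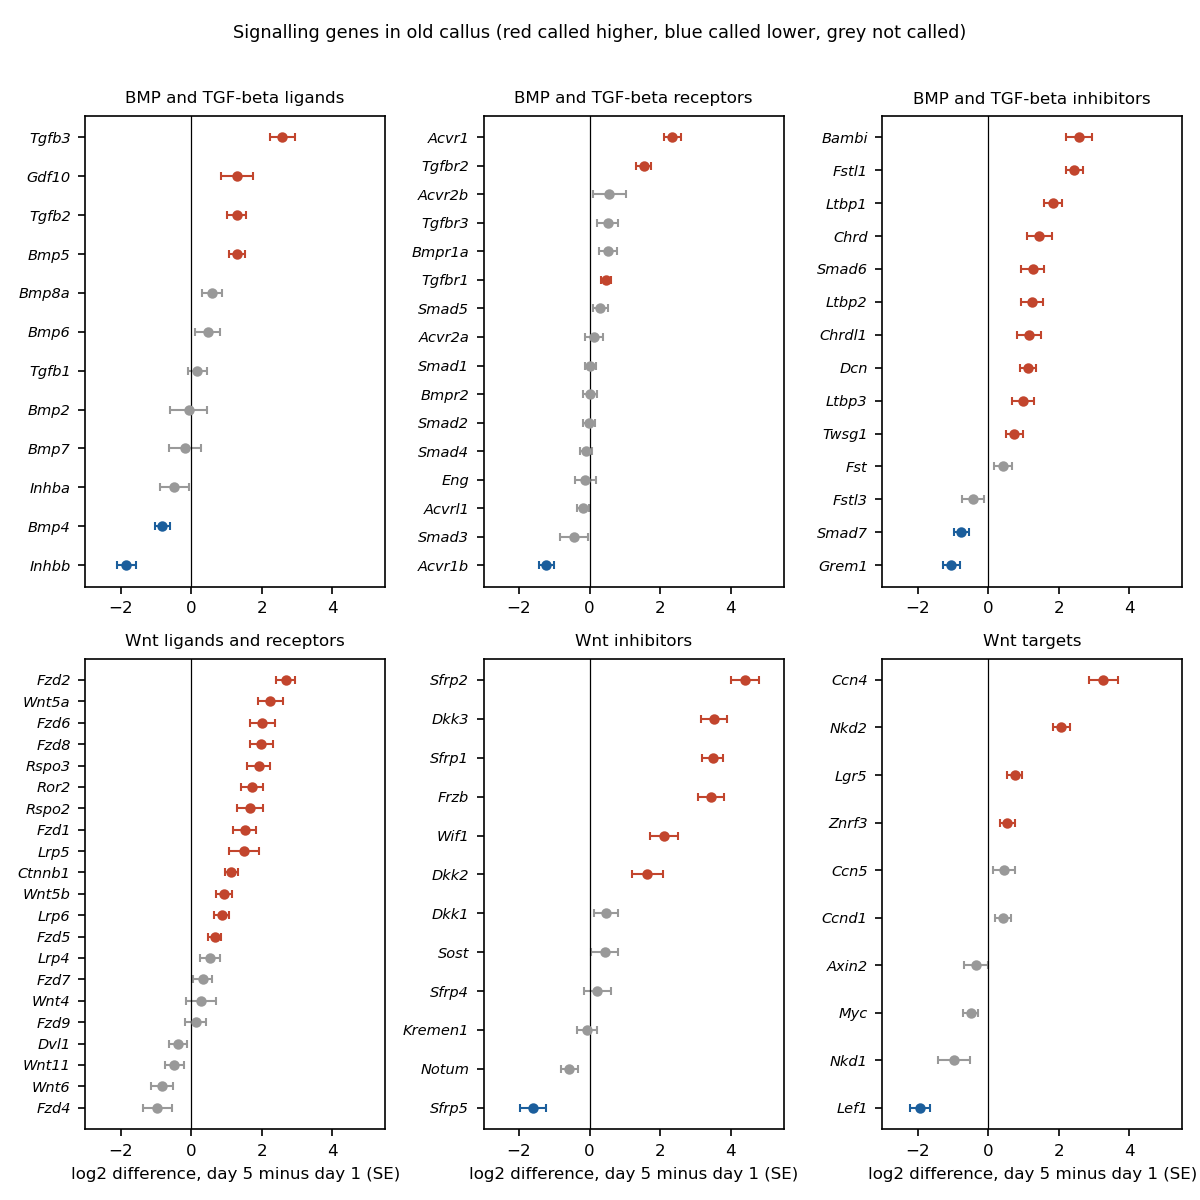
Difference between day 5 and day 1 in old callus for the measured genes of the BMP, TGF-beta and Wnt pathways, on the log2 scale with SE, grouped by role; red genes were called higher, blue genes lower and grey genes not called. The largest rises were those of the Wnt inhibitors Sfrp2, Dkk3, Sfrp1 and Frzb, at 4.41 to 3.44, and most BMP receptor and SMAD genes lay near 0.

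Of 10 hedgehog pathway genes 6 rose and 1 fell. Gli2, a transcription factor of the pathway, rose by 2.39 ± 0.35, the receptor-binding protein gene Gas1 by 2.42 ± 0.35, Smo by 1.68 ± 0.21 and the receptor and target gene Ptch1 by 1.61 ± 0.29, while Gli1 was not called at 0.61 ± 0.43. Of 20 FGF and IGF pathway genes 12 rose and 3 fell, and 3 rose with the Actb ratio as a covariate. Igf1, a growth factor for cartilage, bone and muscle, stood at 8.22, 8.25 and 8.27 on day 1 and at 11.35, 10.99 and 11.36 on day 5, a rise of 2.99 ± 0.23 (adjusted p = 8.81e-08). Igf2 was 8.29, 7.16 and 8.23 on day 1, 7.69, 7.29 and 7.81 on day 3 and 11.21, 10.25 and 10.69 on day 5, and rose by 2.82 ± 0.59 (adjusted p = 0.00148). Igf1 was uniform within each day, and Igf2 was high on day 5 alone. Fgf1 fell by 2.43 ± 0.38, Fgf10 by 1.15 ± 0.30 and Spry2, an inhibitor of FGF signals, by 1.19 ± 0.26. Of 25 vessel genes 10 rose and 3 fell, and 3 rose and 5 fell with the Actb ratio as a covariate. The apelin receptor gene Aplnr rose by 3.82 ± 0.38, and the endothelial genes Emcn and Pecam1 by 1.57 ± 0.29 and 1.13 ± 0.27. Flt1 and Cldn5 fell by 0.98 ± 0.23 and 0.92 ± 0.20, and Cdh5, which marks all endothelium, was not called at -0.12 ± 0.27, above 0 under median centring.

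The inflammatory signals of day 1 were lower on day 5. Of 19 cytokine and chemokine genes 11 fell and 2 rose, with a median of -1.83. Cxcl2, which draws in neutrophils, stood at 9.38, 10.86 and 11.60 on day 1 and at 5.58, 6.68 and 6.14 on day 5, and fell by 4.48 ± 0.65 (adjusted p = 6.5e-05). Cxcl3 was 9.56, 11.40 and 12.01 on day 1 and 5.5, 5.95 and 5.83 on day 5, and fell by 5.23 ± 0.47 (adjusted p = 5.49e-07). On day 1 replicate 1 was lowest for both, but it was still well above day 5, where all 3 arrays of Cxcl3 were under the array median. Il6 fell by 2.91 ± 0.51, the acute-phase gene Saa3 by 2.73 ± 0.38, Ccl2, which draws in monocytes, by 2.55 ± 0.43 and Il1b by 2.53 ± 0.51. Against the list, Ccl8, another monocyte chemokine, rose by 2.58 ± 0.54 (adjusted p = 0.00141) and Ptgs2, the inducible cyclooxygenase gene, by 1.61 ± 0.52 (adjusted p = 0.0226). Tnf, Il1a, Il10, Nos2 and Csf3 had no tested probe set of their own.

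Neutrophil genes fell in 12 of 21 cases and rose in 0, with a median of -1.38, and 9 of the 21 had days that did not overlap, a smaller share than the 51.8% of all genes. The mean level of the list was 9.68, 11.30 and 11.13 on day 1 and 9.78, 9.35 and 8.91 on day 5. Day 1 replicate 1 was low and overlapped day 5. Without that array 19 fell, without day 1 replicate 2 or 3 the count was 7 or 6, without day 5 replicate 3 it was 6, with arrays centred on their medians 6, and with the Actb ratio as a covariate 3. Il1r2, a decoy receptor for interleukin-1, fell by 2.65 ± 0.40, and the activating receptor gene Trem1 by 2.09 ± 0.26. The most abundant granule protein genes were not called: S100a8 stood at 13.81, 14.47 and 14.47 on day 1 and at 14.31, 14.10 and 13.83 on day 5, at the top of the scale throughout, and S100a9 changed by -0.04 ± 0.18.

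Macrophage genes went the other way and peaked on day 3. Of 23 measured 17 rose and 4 fell by day 5, with a median of 1.00. The list's mean level was 8.35, 9.07 and 8.63 on day 1, 10.16, 10.54 and 10.15 on day 3 and 9.50, 9.41 and 9.44 on day 5, so day 5 lay between the other days without overlap. Trem2, a lipid-sensing receptor, was 4.42, 4.59 and 4.4 on day 1, below the array median, 8.58, 9.12 and 8.52 on day 3 and 7.87, 7.62 and 7.92 on day 5, and rose by 3.33 ± 0.28 from day 1 to day 5 (adjusted p = 2.7e-07). The complement genes C1qa, C1qc and C1qb rose by 2.31, 1.75 and 1.41, Ms4a7 by 2.84 ± 0.32, Apoe by 2.62 ± 0.27 and the receptor gene Csf1r by 1.17 ± 0.18. The 4 that fell were Arg1, Cd14, Chil3 and Ccr2, which are known from recently recruited or activated cells, and 2 fell with arrays centred on their medians. Arg1, an arginase, stood at 11.14, 11.98 and 13.06 on day 1, 11.87, 12.80 and 11.10 on day 3 and 9.04, 9.39 and 9.26 on day 5, and fell by 2.83 ± 0.48 (adjusted p = 0.000253). Its fall lay after day 3, where the step was -2.70 (adjusted p = 0.012). Cd14 fell by 2.68 ± 0.46, Chil3 by 1.32 ± 0.45 and Ccr2 by 1.21 ± 0.32.

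Erythroid genes were the list with the lowest median, -2.49, and 15 of 16 fell and 0 rose. Such genes mark red cell precursors of the marrow and blood. Slc4a1, the anion exchanger of the red cell membrane, stood at 11.48, 12.92 and 11.45 on day 1 and at 10.03, 7.91 and 5.59 on day 5, and fell by 4.11 ± 0.83 (adjusted p = 0.00108). Alas2, the first enzyme of red cell heme synthesis, was 11.15, 12.64 and 11.11 on day 1 and 9.74, 8.87 and 7.19 on day 5, and fell by 3.03 ± 0.53 (adjusted p = 0.000321). The days did not overlap, and day 5 spread over several units with replicate 1 highest. The transcription factor genes Gata1 and Klf1 fell by 2.45 and 2.59, the transferrin receptor gene Tfrc by 0.89, and Ank1 was not called at -0.99 ± 0.48. Of 11 platelet precursor and mast cell genes 5 fell, all of them platelet genes such as Itga2b at -1.90 ± 0.38, and 1 rose, the mast cell protease gene Mcpt4 at 1.48 ± 0.36; 0 fell with the Actb ratio as a covariate, while 2 fell under median centring or without day 1 replicate 2 or day 5 replicate 3, and 3 without day 1 replicate 3. Of 17 lymphocyte genes 3 fell and 1 rose, while 7 fell with the values as deposited, 6 without day 1 replicate 1 and 0 with the Actb ratio as a covariate. Ighm, the heavy chain of IgM, fell by 2.85 ± 0.73, and the marker genes Ms4a1, Cd79a and Cd8a were not called.

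**Figure D4:**
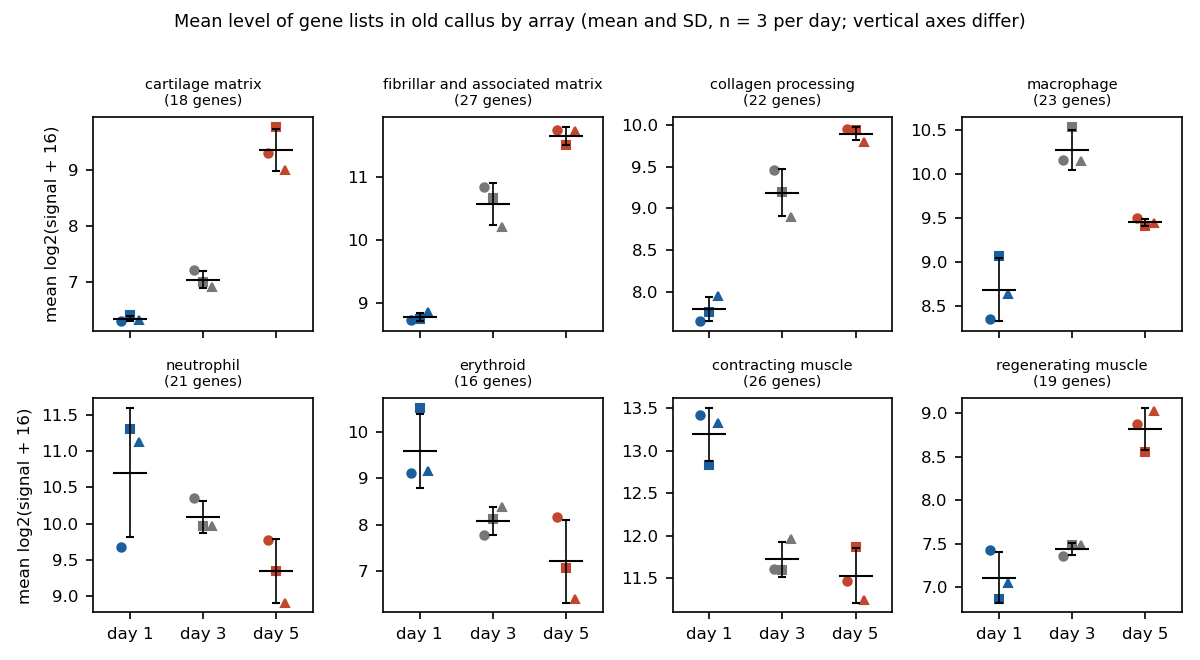
Mean level of 8 gene lists on each of the 9 arrays of old callus, as log2(signal + 16), by day after fracture; symbols are replicates, bars are mean and SD (n = 3 per day), and the vertical axes differ. Cartilage matrix rose mainly between day 3 and day 5, from 7.04 to 9.35, macrophage genes peaked on day 3 at 10.28, and contracting muscle fell by day 3, from 13.19 to 11.72.

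Genes of contracting muscle were lower on day 5 on the 6 arrays compared, but the fit of all 18 arrays called few of them. The list's mean level was 13.42, 12.83 and 13.32 on day 1 and 11.47, 11.87 and 11.24 on day 5. For all 26 genes the 3 arrays of day 5 lay below the 3 of day 1. Over all genes, 51.8% had days that did not overlap, in either direction. In the fit of 18 arrays 3 of 26 fell, with a median of -1.27. In the fit of the 6 arrays alone 25 fell, where 16.5% of all genes were called lower, in that of the 9 arrays of old mice 26 fell, where 19.3% were, without the 3 arrays of young day 3 it was 16, and with the Actb ratio as a covariate 22. The fit of 18 arrays takes its spread from all groups. The list's mean level ran from 9.95 to 12.44 over the 3 arrays of young day 5. No fit left out young day 5 as a group, so its part in the count was not tested. Ckm, the muscle creatine kinase gene, stood at 14.08, 13.94 and 14.08 on day 1 and at 13.22, 13.47 and 12.54 on day 5, a difference of -0.96 ± 0.90 (adjusted p = 0.415) that had an adjusted p = 0.00894 in the fit of the 6 arrays. Its day 1 values lay close to the top of the scale, where differences are compressed. The calls of Ankrd2, Xirp1 and Pdk4 held under every alternative run. Ankrd2, a stretch-responsive ankyrin repeat gene, went from 12.95, 11.32 and 12.35 to 6.94, 7.05 and 7.13, and it fell by 5.17 ± 0.69 (adjusted p = 2.94e-05). Xirp1, an actin-binding gene of damaged fibres, fell by 4.19 ± 0.73, and Pdk4, a kinase that shifts fuel use to fat, fell by 3.61 ± 0.63.

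Genes of regenerating muscle rose over the same days. Of 19 measured 12 rose and 1 fell, with a median of 1.57. Myh3, the embryonic myosin heavy chain, stood at 6.65, 6.22 and 4.36 on day 1, 6.99, 7.42 and 6.80 on day 3 and 11.43, 10.65 and 11.98 on day 5, and rose by 5.61 ± 0.79 (adjusted p = 4.63e-05). Myh8, the perinatal myosin, was 5.29, 4.73 and 5.68 on day 1, 5.55, 5.26 and 4.74 on day 3 and 10.12, 8.91 and 10.36 on day 5, and rose by 4.56 ± 0.64. Both were low on day 3 and high on every array of day 5, and their steps from day 3 to day 5 were called at 4.28 (adjusted p = 0.0153) and 4.61 (adjusted p = 0.00177). Mymk and Mymx, whose products fuse myoblasts, rose by 3.34 ± 0.68 and 3.36 ± 0.61, the fetal contractile genes Myl4 and Tnnt2 by 3.89 ± 0.58 and 3.46 ± 0.62, and the differentiation factor gene Myog by 1.61 ± 0.52. Pax7, which marks satellite cells, rose by 1.09 ± 0.36, and Myod1 was not called at -0.91 ± 0.53. Myf6, which is expressed in mature fibres, fell by 2.62 ± 0.91 (adjusted p = 0.0314), a call lost without any 1 array of either day other than day 1 replicate 2.

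Of the 3 acetylcholine receptor genes of the list, which are expressed along new or denervated fibres, Chrna1 and Chrng rose and Chrnd was not called at -0.04 ± 0.51. Chrna1 stood at 7.25, 5.38 and 5.58 on day 1 and at 10.02, 9.63 and 10.36 on day 5, and rose by 3.93 ± 0.65 (adjusted p = 0.000211). Chrng was 4.48, 4.4 and 5.25 on day 1 and 7.24, 7.18 and 7.53 on day 5, and rose by 2.61 ± 0.54 (adjusted p = 0.00126). Both genes that rose were higher on every array of day 5. The promoters of these and of Ckm are shown because they hold CAGCTG, an E-box that myogenic factors such as MyoD and myogenin are known to bind. The windows are the 250 bases before the transcription start from RefSeq (GRCm38.p6), on the gene's strand, with each CAGCTG in capitals: Chrna1 at chr2:73580339-73580588 on the minus strand, Chrng at chr1:87205561-87205810 on the plus strand and Ckm at chr7:19410844-19411093 on the plus strand.
Chrna1: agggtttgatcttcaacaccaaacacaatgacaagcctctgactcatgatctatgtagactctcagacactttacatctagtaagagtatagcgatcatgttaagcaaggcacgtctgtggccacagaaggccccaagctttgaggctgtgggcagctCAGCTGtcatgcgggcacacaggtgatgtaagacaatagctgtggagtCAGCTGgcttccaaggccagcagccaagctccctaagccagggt
Chrng: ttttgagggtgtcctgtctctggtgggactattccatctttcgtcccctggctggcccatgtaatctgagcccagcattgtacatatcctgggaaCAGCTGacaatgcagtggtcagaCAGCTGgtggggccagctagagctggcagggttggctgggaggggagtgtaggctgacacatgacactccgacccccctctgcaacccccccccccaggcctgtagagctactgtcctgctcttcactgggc
Ckm: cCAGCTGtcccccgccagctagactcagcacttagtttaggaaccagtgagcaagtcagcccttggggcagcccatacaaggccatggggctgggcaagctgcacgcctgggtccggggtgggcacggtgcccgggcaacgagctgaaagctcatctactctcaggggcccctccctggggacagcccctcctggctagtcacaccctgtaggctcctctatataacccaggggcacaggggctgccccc
The motif, which reads the same on both strands, lies 38 and 86 bases before the start in Chrna1, 126 and 149 bases before it in Chrng and 243 bases before it in Ckm. Of 14 windows of 13 regenerating muscle genes with an entry 5 held it (35.7%), and of 22 windows of 19 contracting muscle genes 10 did (45.5%), beside 13% of the 32851 windows of all genes. The regenerating list was added to this search after its values were seen. Of 15 windows of 12 cartilage matrix genes 2 held the motif (13.3%), and 2 held ACAAAG or AACAAT on either strand, cores that SOX factors are known to bind, beside 24% of all windows. Both windows with a SOX core belong to Epyc, which was not called. By gene, 8.33% of the 12 held a core, beside 26.8% of all genes. These matches describe letters in a window and were not tested as sites.

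Immediate early genes, which are switched on within minutes of injury without new protein, were lower on day 5. Of 21 measured 11 fell and 0 rose, with a median of -0.69. Under median centring, which moves the median of all probe sets up to 0.48, 5 fell, 4 rose and the list's median turned to 0.14, and 7 fell without day 1 replicate 3 or day 5 replicate 3. Dusp1, a phosphatase that ends MAP kinase signals, stood at 10.82, 10.62 and 10.99 on day 1 and at 8.97, 8.98 and 9.04 on day 5, and fell by 1.82 ± 0.22 (adjusted p = 1.18e-05). Atf3 fell by 2.04 ± 0.25, Fosl1 by 2.04 ± 0.27, Ier3 by 1.97 ± 0.28 and Btg2 by 1.76 ± 0.28, while Fos and Jun, the founding members, were not called at -0.64 ± 0.31 and -0.37 ± 0.33. Zfp36, which destabilises cytokine messages, was 8.76, 9.63 and 9.82 on day 1 and 8.08, 8.13 and 7.66 on day 5, and fell by 1.44 ± 0.24. Egr2, a zinc finger factor gene, was 6.91, 6.78 and 8.06 on day 1 and 6.30, 6.18 and 6.24 on day 5, and fell by 1.01 ± 0.33 (adjusted p = 0.0217). Neither gene overlapped between days. Their promoters are shown because both hold a CArG box, the site that serum response factor is known to bind, printed in capitals. The windows are again the 250 bases before the start (RefSeq, GRCm38.p6, gene strand): Zfp36 at chr7:28379229-28379478 on the minus strand, and Egr2 at chr10:67537316-67537565 on the plus strand, 1 of its 5 listed starts.
Zfp36: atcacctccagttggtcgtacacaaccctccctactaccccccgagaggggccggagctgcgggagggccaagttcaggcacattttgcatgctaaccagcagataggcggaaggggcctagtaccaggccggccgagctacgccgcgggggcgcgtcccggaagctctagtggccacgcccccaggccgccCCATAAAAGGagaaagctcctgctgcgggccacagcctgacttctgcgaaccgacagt
Egr2: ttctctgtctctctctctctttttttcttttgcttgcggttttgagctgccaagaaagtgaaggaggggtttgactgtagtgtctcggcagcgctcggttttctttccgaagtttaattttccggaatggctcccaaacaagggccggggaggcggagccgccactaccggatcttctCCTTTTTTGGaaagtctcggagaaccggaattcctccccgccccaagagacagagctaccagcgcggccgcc
The box lies 48 bases before the start in Zfp36 and 62 bases before it in Egr2. It was found in 6 of 20 windows of 16 immediate early genes (30.0%), which belong to the 3 genes Egr2, Srf and Zfp36, beside 1.47% of the windows of all genes. It was found in 2 of 22 windows of contracting muscle genes (9.09%) and 0 of 15 of cartilage matrix genes.

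Other stress and metabolic lists were lower on balance. Of 12 heat shock genes 7 fell and 0 rose, led by the inducible chaperone genes Hspa1b at -3.01 ± 0.44, Hspb1 at -2.72 ± 0.65 and Hspa1a at -2.52 ± 0.37, and with arrays centred on their medians 4 fell and 4 rose; 3 fell without day 1 replicate 1 or day 5 replicate 1. Of 17 hypoxia and glycolysis genes 8 fell and 1 rose, and 4 fell with arrays centred on their medians. The glucose transporter gene Slc2a1 stood at 10.43, 10.29 and 10.97 on day 1 and at 8.73, 8.94 and 9.05 on day 5, and fell by 1.65 ± 0.22 (adjusted p = 3.14e-05). Pfkfb4 fell by 1.76 ± 0.18 and Hk2 by 2.19 ± 0.51. The gene of the list that rose, P4ha1 at 1.70 ± 0.22, is also a collagen processing gene. Of 18 genes of mitochondrial respiration 10 fell and 1 rose, but 0 fell with arrays centred on their medians and 6 without day 1 replicate 1 or day 5 replicate 3, and the largest fall was that of the muscle isoform Cox7a1 at -2.74 ± 0.80. Of 11 senescence and cell death genes 6 fell and 3 rose. Their median of -0.55 turned to 0.02 under median centring, where 2 fell, and 3 fell with the Actb ratio as a covariate or without day 5 replicate 2. Gadd45a, a DNA damage response gene, fell by 2.63 ± 0.31, and Cdkn1c, a cell cycle inhibitor of maturing chondrocytes, rose by 2.99 ± 0.38.

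Few proliferation genes were called. Of 27 cell cycle genes 4 were called higher and 0 lower, with a median of 0.20, and the count was 1 without day 1 replicate 1, 10 without day 1 replicate 2, 2 without day 1 replicate 3 or day 5 replicate 1 or 3, 2 in the fit of the 6 arrays or with the Actb ratio as a covariate, and was 18 with arrays centred on their medians. The mean level of the list was 7.82, 9.36 and 8.30 on day 1, 9.22, 9.14 and 9.0 on day 3 and 8.88, 8.65 and 8.76 on day 5. Day 1 replicate 2 was as high as day 3 and enclosed day 5, and that array was also the highest of its group for the erythroid list. Mki67, a marker of dividing cells, was 10.44, 12.14 and 10.89 on day 1 and 10.57, 10.13 and 10.39 on day 5 and was not called (adjusted p = 0.0753). Kif20a and Cdk1, both of mitosis, were called higher at 1.53 ± 0.35 and 1.11 ± 0.34.

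Lists for neighbouring tissues changed in part. Of 11 fat genes 7 fell and 1 rose, with 4 falling without day 1 replicate 1 or day 5 replicate 2. Plin4, which coats lipid droplets, fell by 3.21 ± 0.70 and the lipase gene Pnpla2 by 2.87 ± 0.44, Pparg rose by 1.82 ± 0.38, and Adipoq, the adipocyte hormone, was not called at -0.06 ± 0.63, above 0 under median centring or without day 5 replicate 3. The fat list's mean level ran from 8.95 to 9.37 on day 1 and from 7.55 to 8.28 on day 5. Of 5 measured skin genes 3 fell and 1 rose, with Lor at -2.34 ± 0.48, and 0 fell with the Actb ratio as a covariate; 9 of the 14 skin genes had no tested probe set of their own. Of 7 nerve genes 3 rose and 1 fell, and Sox10, which marks Schwann cells, was not called at -0.12 ± 0.38.

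The change in old mice was set against that in young mice, on arrays that the 2 ages do not share. In young callus 22.5% of genes were called between day 1 and day 5. The difference between the ages was called for 3 of 27746 probe sets (0.0108%), all with a larger fall in old mice, and for 2 of 12921 genes (0.0155%), Erdr1 and Mid1; at an unadjusted p under 0.05 there were 1959 probe sets. For cartilage matrix the medians were 3.08 in old and 2.80 in young mice, for fibrillar matrix 2.79 and 1.90, for neutrophil genes -1.38 and -0.27 and for erythroid genes -2.49 and -1.51, and 0 members of any list were called different between the ages. Aspn was nearest to a call among the named matrix genes, with a rise of 5.06 ± 0.32 in old and 2.38 in young mice and a difference of 2.68 ± 0.46 (adjusted p = 0.0847). A p that misses the threshold does not show that the ages changed alike: the SE of the difference was 0.87 for Col2a1 and 1.12 for Myh3.

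Erdr1 and Mid1 lie near each other at the end of the X chromosome, at and beside the boundary of the region it shares with the Y chromosome. Erdr1 stood at 11.87, 12.32 and 11.89 in old callus on day 1, at 6.49, 6.86 and 7.78 on day 3 and at 6.76, 7.09 and 5.98 on day 5. In young callus it was 13.11, 11.97 and 12.86 on day 1 and 11.75, 12.04 and 11.57 on day 5. It was thus high on every array of old day 1 and of both young days and low on every array of old day 3 and day 5. The fall was 5.42 ± 0.36 in old mice (adjusted p = 1.77e-08), and the difference of the changes was -4.56 ± 0.50 (adjusted p = 0.00097). Mid1, a ubiquitin ligase gene, was 9.48, 10.10 and 9.79 on old day 1, 6.71, 6.41 and 6.23 on old day 3 and 6.50, 6.54 and 6.61 on old day 5, against 10.47, 9.06 and 8.99 on young day 1 and 9.34, 9.45 and 8.92 on young day 5. Its fall was 3.24 ± 0.30 in old mice (adjusted p = 7.19e-07), and the difference of the changes was -2.97 ± 0.43 (adjusted p = 0.0194), a call that did not survive leaving out any 1 of 8 arrays, although the difference itself stayed between -2.71 and -3.0 in those fits: old day 1 replicate 2, all 3 of old day 5, young day 1 replicate 2 or 3, or young day 5 replicate 1 or 2 (limma, adjusted p = 0.056 to 0.103). The values of Erdr1 come from a probe set of the cross-hybridising kind, which can read related sequences. Its other tested probe set, dimmer and not of that kind, fell by 1.62 in old mice (limma, adjusted p = 0.0128), and its difference between the ages was -1.79 ± 0.67 and not called (limma, adjusted p = 0.607). Without cross-hybridising probe sets 1 probe set was called different between the ages. Since the strain in the sample fields and that in the series' design conflict, a change over time and a difference in the mice used cannot be told apart for these genes, and the same limit holds for every difference between old day 1 and old day 5.

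**Figure D5:**
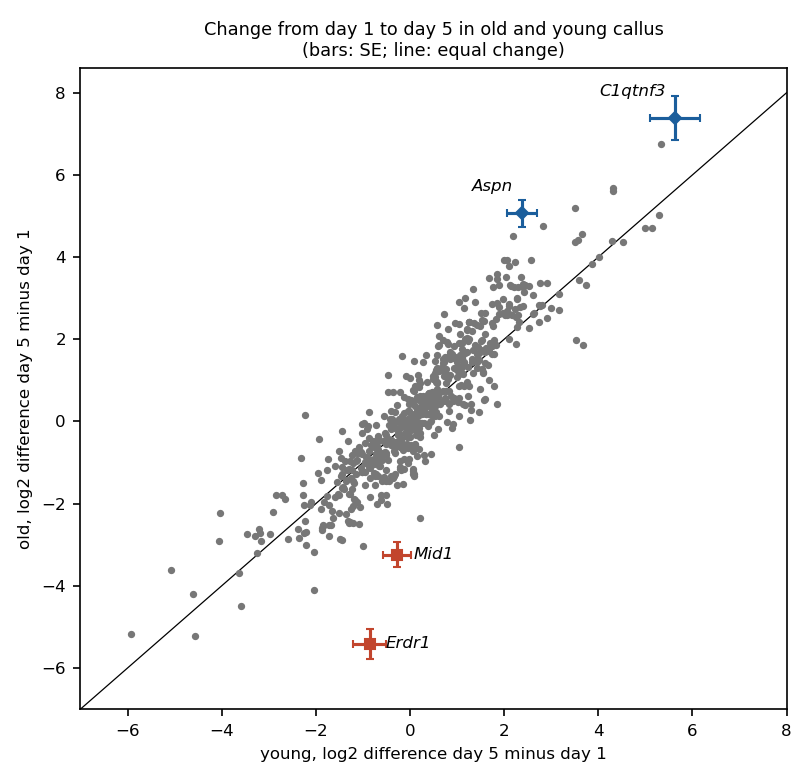
Difference between day 5 and day 1 in old callus (vertical) against that in young callus (horizontal), on the log2 scale, for the measured list genes (grey points), with Erdr1 and Mid1 (squares) and Aspn and C1qtnf3 (diamonds) with SE; the line marks equal change. Erdr1 and Mid1 lie far below the line, at -5.42 and -3.24 in old against -0.86 and -0.27 in young mice, and Aspn lies above it.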

How the data were processed

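Callus RNA was prepared with Trizol and read on Affymetrix mouse arrays with biotin-labelled target, per the labels. The authors deposited a linear intensity for each of 45101 probe sets on 18 arrays; the signal algorithm is not given in the sources used here. Trimmed of 2% at each end, every array had a mean of 150, while medians ran from 36 to 72.4. After 64 control probe sets were left out, log2(intensity + 16) was quantile normalized, because array medians differed by 0.77, over the limit of 0.5. Probe sets above the array median on 3 or more arrays were tested (27746). One fit held all 18 arrays with a mean per group (limma 3.58.1 in R 4.3.3, lmFit and eBayes with a trend, 17.3 total degrees of freedom), with Benjamini-Hochberg adjustment over all tested probe sets.

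In the platform annotation 34958 probe sets carry a single gene, 932 more than one and 9211 no gene; symbols of 34754 were updated through the gene identifier. Each gene is represented by the brightest of its tested probe sets on average (12921 genes); among 5928 genes with several, 245 had calls in opposite directions. The 43 lists hold 747 genes and are counted over tested members, since genes dim in all groups were not tested. A gene can stand in several lists and is then counted in each. The comparison and the lists were chosen with earlier results of these data known. Named genes are up to 15 each way with the largest called, non-overlapping difference, the first 4 and up to 8 largest of each list, those called different between the ages, and list members not measured or called against their list; the text names a part of them. Replicate numbers did not pair the arrays. On simulated data for old day 5 minus day 1 (27746 probe sets), 40 of 50 changes of 2 on the log2 scale and 19 of 50 changes of 1 were called. In that simulation 27546 probe sets had no change, where 37.9% were called in the data. The adjusted threshold depends on that share, so the simulated counts do not measure how many changes were found here.

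Alternatives were the values as deposited, median centring, pseudocounts of 1 and 64, no filter or one at the 75th percentile, no cross-hybridising probe sets, no trend, array weights, a replicate block, the Actb ratio as a covariate, fits of 6 or 9 arrays, a 2-fold threshold, all probe sets of a gene averaged and each array left out. The fit without young day 3 and the promoter search of regenerating muscle genes were chosen after seeing the data.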

Additional observations from a re-analysis of the deposited data

Results flagged for a closer look

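The change from day 1 to day 5 differed between old and young mice, by the test of the difference itself, for 3 probe sets. Those with a single gene were Erdr1, whose change in old mice minus that in young mice was -4.56 ± 0.50 (limma, adjusted p = 0.00097), and Mid1, at -2.97 ± 0.43 (limma, adjusted p = 0.0194). The other probe set has no gene listed and differed by -3.73 ± 0.42 (limma, adjusted p = 0.00097). Both probe sets other than that of Mid1 are of the cross-hybridising kind, and without such probe sets 1 call was left; the other tested probe set of Erdr1 differed by -1.79 ± 0.67 (limma, adjusted p = 0.607). All 3 fell further in old than in young mice.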

How the results depend on the processing

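Of 10507 probe sets called between old day 5 and day 1, the count was 959 for a difference tested against 2-fold, 6284 with the Actb ratio as a covariate and 6175 of 14230 with the 75th percentile filter, and 7662 to 10104 without single arrays of the 2 groups. It was 10366 with the replicate block; the numbers showed no pairing, as deviations of same-numbered arrays correlated at -0.22 to -0.03. Without young day 3 it was 12171. The step from day 1 to day 3 had 8261 calls, 12783 with median centring and 5200 to 8349 without single arrays. The step from day 3 to day 5 had 164, 273 with the values as deposited and 49 to 146 without single arrays. The difference between the ages had 3, 7 with array weights, 1 without cross-hybridising probe sets and 2 to 6 without single arrays. Of 314 named genes that were called, 102 lost their call with the Actb covariate, 194 against 2-fold, 43 with median centring and 26 to 41 without single arrays. Among genes called in either fit, signs turned with median centring for Adamts5 (0.20), Cdkn1a (0.02), Cox4i1 (0.02), Csf1 (0.18), Dnajb1 (0.80), H2-Aa (0.77) and Mdm2 (0.02), with all probe sets of a gene averaged for Fzd6 (-0.01), Ndufb8 (0.11) and Tgfb1 (-0.58), and with the Actb covariate for Igfbp5 (-0.57). Uncalled genes near 0, such as Adipoq, Bmp2, Cdh5 and Atp5a1, also took either sign. The stricter threshold and filter call fewer by construction; for the others the cause was not tested. With 3 arrays per group, small changes in dim probe sets are beyond the precision.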

Other observations

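A set of imprinted genes, expressed from the copy of one parent and known for growth control before birth, was chosen after values were seen, since Mest and Plagl1 were among the largest rises. Of its 16 genes 15 were measured, and 11 were called higher and 0 lower on day 5, with a median of 1.94, where 21.9% of all genes were called higher. Mest, which encodes a hydrolase of mesoderm, stood at 6.78, 6.48 and 6.77 on old day 1, 9.24, 9.11 and 8.92 on day 3 and 11.97, 11.41 and 12.05 on day 5, and rose by 5.13 ± 0.22 (limma, adjusted p = 4.24e-10). Plagl1, a zinc finger factor gene, was 7.80, 7.36 and 7.19 on day 1 and 12.25, 12.11 and 11.74 on day 5. The days did not overlap for either gene. Grb10, an adaptor of insulin signals, rose by 3.12 ± 0.28, Peg3 by 3.07 ± 0.34, Cdkn1c by 2.99 ± 0.38, Igf2 by 2.82 ± 0.59, Meg3 by 2.00 ± 0.29 and Ndn by 1.94 ± 0.40. Dlk1, Gnas, Gatm and Slc38a4 were not called, at -0.36 to 0.39. In young mice, 10 of the 15 were called higher, with a median of 1.64, and 0 were called different between the ages. Since the genes were picked with their values in view, no test of the set was made.

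Of 19 measured genes of the secretory pathway and its stress response 9 rose and 3 fell, and 4 rose with the Actb ratio as a covariate. Pdia3, a disulfide isomerase gene, rose by 2.00 ± 0.18, the transport coat genes Sec24d and Sec23a by 1.99 ± 0.22 and 1.15 ± 0.18, and Creb3l1, a factor that drives collagen secretion in bone, by 1.68 ± 0.35. The chaperone genes Pdia6, Hsp90b1, Canx and Manf rose by 0.94, 0.69, 0.65 and 0.49. Dnajb9, Herpud1 and Ddit3, genes of the unfolded protein response, fell by 1.48 ± 0.25, 1.00 ± 0.24 and 0.97 ± 0.20, and 0 fell with arrays centred on their medians. Hspa5, Xbp1, Pdia4 and Sdf2l1 were not called, at -0.45 to -0.08. Of 12 coagulation genes 4 fell and 3 rose, and 2 fell without day 1 replicate 2 or with arrays centred on their medians. Thbd, which encodes thrombomodulin, was 11.83, 10.99 and 11.97 on day 1 and 7.87, 8.07 and 7.82 on day 5, and fell by 3.68 ± 0.26 (limma, adjusted p = 4.01e-08), while Serpinf1 rose by 2.85 ± 0.24. MHC class II genes were called in 0 of 8 cases, and 4 of 8 were called higher with arrays centred on their medians. Of 12 interferon response genes 2 fell, Rsad2 by 2.5 ± 0.45 and Irf7 by 1.17 ± 0.29, where 17.3% of all genes were called lower. The other 10 were not called and the list's median was 0.21, so the list did not fall as a whole.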
